A study of Danio rerio with 20 samples.

Results

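The 10 whole-larva libraries of the OCT20 campaign fell on 2 sides of a wide gap in the count of a single gene, si:dkey-269o24.1, and each side held larvae of both treatments. These 10 libraries, of 20 in the whole series, were split at a raw count of 60 for that gene, which put 5 libraries on each side. On the low side were 2 libraries of exposed larvae (SEC replicates 4 and 5) and 3 of control larvae (CTRL replicates 1, 3 and 5). On the high side were 3 exposed libraries (SEC replicates 1, 2 and 3) and 2 control libraries (CTRL replicates 2 and 4). The low side was compared with the high side across all genes, with treatment as a covariate.

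The study counted transcripts in wild-type zebrafish larvae at 5 days post fertilisation. SEC larvae were exposed between day 4 and day 5, through the water, to extracted secondary effluent from wastewater treatment at a strength given as 20x, and CTRL larvae were the controls of the same campaign. The JUN20 campaign had the same layout, with 5 SEC and 5 CTRL libraries, and is used here as a set of libraries that played no part in the split. Pools of 10 whole larvae, obtained by natural mating and raised at 28.5 °C, made up each library. The labels carry nothing that sets the low libraries apart from the high ones, and they do not say whether the pools came from separate spawns. Differences between libraries are therefore differences between pools, and fewer cells of a type cannot be told apart from less RNA per cell.

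FoxO transcription factors are active when insulin and growth factor signals are low, as in fasting. In vertebrate muscle they turn on the ubiquitin ligases atrogin-1 (fbxo32) and MuRF1 (trim63), along with autophagy genes, and the muscle protein is broken down. NLR genes, which encode intracellular sensors of the immune system, and MHC class I genes, which encode antigen-presenting proteins, form large families in zebrafish. Many members are close copies of each other, so that reads could be divided between them and their counts are uncertain.

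The rule gene had raw counts of 21 and 26 in the low SEC libraries and 29, 16 and 29 in the low CTRL libraries, against 174, 166 and 204 in the high SEC libraries and 106 and 128 in the high CTRL libraries. No October library lay between 29 and 106, the counts just inside and just outside the split. In June the gene had a count of 8 in CTRL replicate 2 and 62 to 256 in the other 9 libraries. Library totals were 28899100 to 45439387 counts for low libraries and 28832858 to 39937096 counts for high libraries, so the ranges of depth overlapped. Protein-coding mitochondrial transcripts took 3.84 to 4.79% of counts on the low side and 4.42 to 5% on the high side, and mitochondrial rRNA 2.31 to 3.28% against 2.27 to 3.33%. The defining markers of 16 tissues of a whole larva were all detected, and none of them was free of overlap between the sides. The fast muscle marker mylpfa averaged 7260 CPM on the low side and 7320 CPM on the high side (CPM, counts scaled to library size after TMM normalisation), the neuronal marker elavl3 478 and 484 CPM, and the trypsin gene prss1 1540 and 1300 CPM. Lower in the low libraries within both treatments were the keratin gene krt4 (log2 difference, low minus high, -0.41 ± 0.05), the cone opsin gene opn1mw1 (-0.92 ± 0.18) and the enterocyte gene fabp2 (-0.44 ± 0.04). The cartilage collagen gene col2a1a differed by -0.46 ± 0.12 and overlapped.

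The split reached far beyond the rule gene. After removal of differences between SEC and CTRL, the first principal component of the 10 libraries held 40.1% of the variance, with the 5 low libraries at positive and the 5 high libraries at negative values. Of 22512 genes tested, 1827 had no overlap at all between the 5 low and the 5 high libraries, which is 8.12% of the genes. Of these, 981 (4.36%) were higher and 846 (3.76%) lower on the low side. This count was 2924 without CTRL replicate 3 and 2744 without SEC replicate 5, where a rise was built in because fewer libraries had to stand apart. A looser criterion asked for no overlap within SEC and within CTRL separately, in the same direction. It was met by 4301 genes (19.1%), with 2112 higher (9.38%) and 2189 lower (9.72%) on the low side. Since the sides were chosen from these same libraries, all these counts and the differences that follow are descriptions and no test is given for them.

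Most of the differences were modest. The median size of the log2 difference, low minus high, was 0.33 over the genes without overlap and 0.135 over all tested genes. Only 76 genes without overlap were at least 2-fold higher on the low side, and 65 at least 2-fold lower. In 14 genes the nearest libraries of the 2 sides stood 2-fold or more apart, 4 of them higher and 10 lower on the low side. Of the genes without overlap, 20 passed the filter on low counts through one side alone, 10 through each side, and for these a difference was built into the filter. An adjusted p of 0.05 for the side term, which is only a description here, was passed by 19.8% of tested genes, 9.4% higher and 10.4% lower on the low side.

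The sharpest divisions were in genes that were all but silent in one set of pools. BX004857.1 was at 0 counts in all 5 low libraries, against 271, 40 and 146 counts in the high SEC libraries and 123 and 58 in the high CTRL libraries. si:dkey-125e8.3 was likewise at 0 in all 5 low libraries, against 115, 20 and 31 counts in high SEC and 85 and 52 in high CTRL libraries. Both passed the filter through the high side alone. With 3 counts per library as the floor, they were at least 45-fold and 22.3-fold lower on the low side. Both genes were also at 0 in 2 June libraries, SEC replicates 2 and 5, where the rule gene had 256 and 217 counts. Both had their highest June counts, 268 and 211, in CTRL replicate 2, the June library with 8 counts of the rule gene. In these 3 June libraries the order of both genes was opposite to that of the rule gene.

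si:ch1073-464p5.5 had 14 and 22 counts in the low SEC libraries and 37, 17 and 19 in the low CTRL libraries, against 734, 1634 and 1033 in high SEC and 955 and 769 in high CTRL libraries. Its log2 difference was -5.69 ± 0.39 (SE), and in June it had 715 to 3257 counts, so that the low side alone was outside the June range. zgc:194659 gave the same picture, with 2 to 10 counts on the low side, 148 to 204 on the high side and 33 to 295 in June, a log2 difference of -5.29 ± 0.25. mhc1zfa, an MHC class I gene, had 0 to 2 counts in the low libraries and 15 to 25 in the high ones, with 11 to 59 in June, a log2 difference of -5.0 ± 0.52. zgc:194659 and mhc1zfa, too, passed the filter through the high side alone. zgc:92137, a member of the exocrine pancreas list, was also much lower, at -2.04 ± 0.43, while the list's median over 29 tested members was 0.27.

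**Figure D1:**
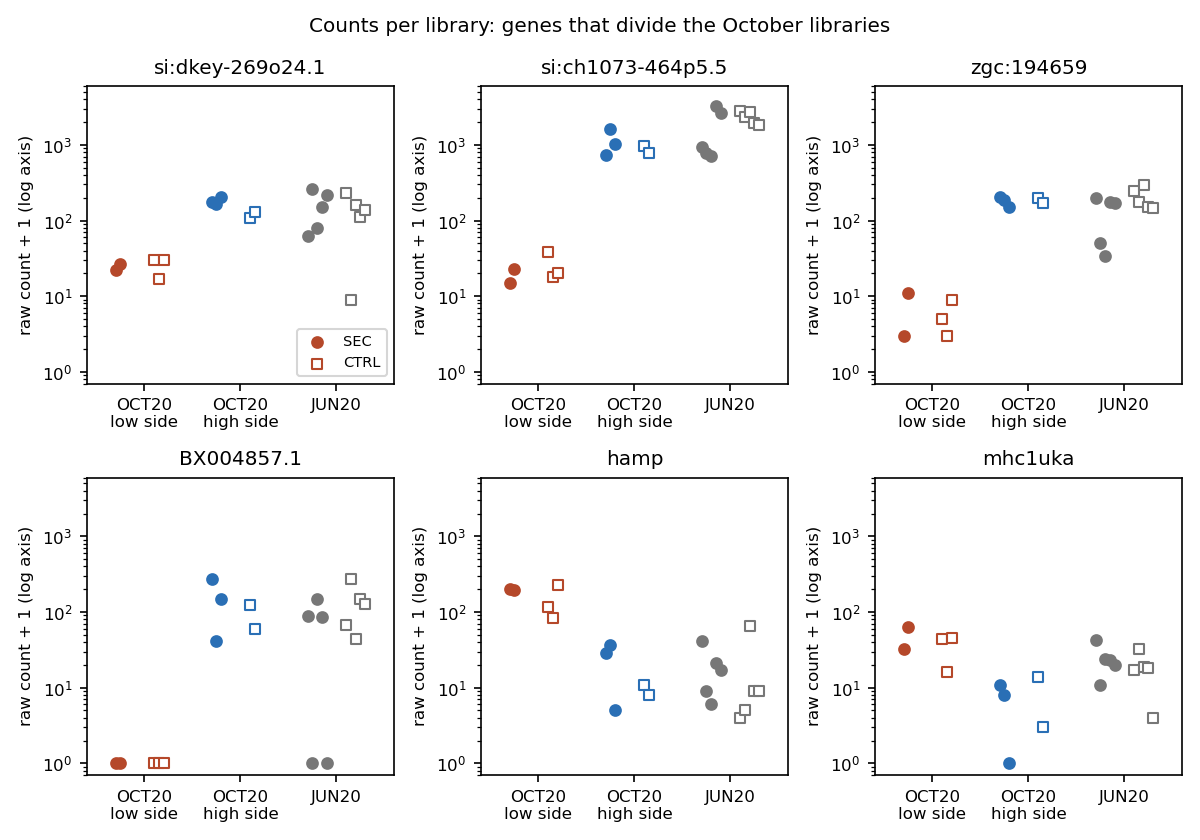
Raw counts plus 1 on a log axis for 6 genes in each of the 20 libraries, grouped as October low side, October high side and June; filled circles are SEC and open squares CTRL libraries. SEC and CTRL libraries of a side lie together, and BX004857.1 is at 0 counts in all 5 low libraries and in 2 June libraries.

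A smaller number of genes stood out in the opposite direction. hamp encodes hepcidin, the liver hormone that limits iron export from cells, and it had 199 and 194 counts in the low SEC libraries and 114, 82 and 224 in the low CTRL libraries. In the high libraries it had 28, 36 and 4 counts in SEC and 10 and 7 in CTRL, and its log2 difference was 3.22 ± 0.44. June libraries had 3 to 64 counts of hamp, below every low library. mhc1uka, another MHC class I gene, had 31 and 62 counts in low SEC and 43, 15 and 44 in low CTRL libraries, against 10, 7 and 0 in high SEC and 13 and 2 in high CTRL libraries. Its log2 difference was 2.4 ± 0.52, opposite to that of mhc1zfa. si:ch211-57b15.1 (2.88 ± 0.40) was higher on the low side as well, and so was one entry of scg5 (2.02 ± 0.41). That symbol stands on more than one entry of the count table, the other differing by -0.27 ± 0.05, so its identity is uncertain.

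Several NLR genes were higher on the low side. nlrc6 had 344 and 585 counts in low SEC and 359, 246 and 385 in low CTRL libraries, against 132, 154 and 186 in high SEC and 109 and 131 in high CTRL libraries. The groups stood well apart, with a log2 difference of 1.31 ± 0.10. nlrc7 (1.11 ± 0.18) had no overlap either. One entry of nlrc8 (1.05 ± 0.21) had none, while a second entry with that symbol overlapped (0.25 ± 0.24). In all, 4 of the 13 tested genes with an NLR symbol had no overlap and 9 overlapped, beside 8.12% of all genes without overlap. Of 10 tested genes with an MHC class I symbol, 2 had no overlap, mhc1zfa and mhc1uka. For mhc1zfa, which passed the filter through the high side alone, this was built in. The MHC share is therefore no result about that family.

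Single other immune and liver genes were lower on the low side. leap2, which encodes a liver-expressed antimicrobial peptide, averaged 4.51 ± 1.52 CPM on the low side and 13.1 ± 5.93 CPM on the high side (SD, n = 5 each), a log2 difference of -1.52 ± 0.34. The complement genes c3a.2 (-1.27 ± 0.30), cfh (-0.77 ± 0.18) and c7a (-0.74 ± 0.10) had no overlap either. Of 32 tested genes of the complement and acute phase list, hamp was the one higher without overlap and these 3 were lower. That is 12.5% of the list, near the 8.12% of all tested genes. mucms1 (-2.63 ± 0.58) had 4 and 134 counts in low SEC and 19, 23 and 18 in low CTRL libraries, against 147, 362 and 333 in high SEC and 166 and 145 in high CTRL libraries. The low SEC replicate 5 came close to the high side. slc30a8, known in mammals as the zinc transporter of insulin granules, averaged 1.0 ± 0.45 CPM on the low side and 2.95 ± 0.92 CPM on the high side. Further genes more than 2-fold lower on the low side were casp20 (-1.21 ± 0.12), a caspase, ndufa9b (-1.17 ± 0.19), a complex I subunit, emilin3a (-1.25 ± 0.23), a matrix glycoprotein, and ecrg4b (-1.22 ± 0.16).

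Genes known only by a clone or locus name made up most of the large differences. They were 98 of the 141 genes without overlap that differed at least 2-fold (69.5%), beside 24.7% of all tested genes. Over all 1827 genes without overlap their share was 23.6%. The 141 genes include the rule gene itself and hold more genes of low count. Genes that passed the filter through one side alone, for which a difference was built in, were not taken out. BX004857.1, si:dkey-125e8.3 and zgc:194659 are such genes among the clone-named ones, so their share rests partly on the filter. Of them, 58.9% averaged at least 1 CPM, beside 88.9% of all tested genes. Clone-named genes are often copies in families, and their counts carry the uncertainty named above. In the gene order of the RefSeq assembly GRCz12tu, which is not the build used for the counts, 57 of the 141 could be placed. Of these, 8 (14%) had another of the set within 5 tested genes, beside 2.89% of all placed tested genes without regard to the set. A run of 4 of them held the zinc finger genes znf1069 (-1.53 ± 0.18) and znf1070 (-1.44 ± 0.22) with si:ch211-226o13.1 (-1.29 ± 0.14) and si:ch73-170d6.2 (-1.53). All 4 were lower on the low side. A pair, ecrg4b and trim63a, differed in opposite directions.

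A second kind of difference was graded and included genes known for muscle protein breakdown, measured here in whole larvae. trim63a, the ubiquitin ligase MuRF1, had 276 and 236 CPM in low SEC and 266, 200 and 305 CPM in low CTRL libraries, against 155, 190 and 138 CPM in high SEC and 88.4 and 81.8 CPM in high CTRL libraries. It was higher in every low library than in any high one, with a log2 difference of 1.13 ± 0.22. psme4a, which encodes the proteasome activator PA200, had 313 and 284 CPM in low SEC and 395, 277 and 411 CPM in low CTRL libraries, against 168, 219 and 172 CPM in high SEC and 130 and 140 CPM in high CTRL libraries (1.04 ± 0.19). ppp1r27b (1.15 ± 0.24), calcoco1b (1.04 ± 0.18), related to autophagy receptors, and trim63b (0.72 ± 0.21) had no overlap either. The proteasome list, which holds psme4a, did not share its difference. Of its 50 tested genes 5 were higher and 1 lower without overlap (12%, near the 8.12% of all tested genes). Within both treatments 16% had no overlap, beside 19.1% of all tested genes, and the median was 0.02.

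fbxo32, the ubiquitin ligase atrogin-1, had 160 and 152 CPM in low SEC and 163, 121 and 172 CPM in low CTRL libraries, against 98.2, 126 and 103 CPM in high SEC and 47.8 and 52.1 CPM in high CTRL libraries. A low CTRL library at 121 CPM lay below a high SEC library at 126 CPM, so the sides overlapped by that pair, while within each treatment they did not. Its log2 difference was 1.05 ± 0.24. klhl38b (1.05 ± 0.29) and igfbp1b (1.11 ± 0.38), a binding protein of insulin-like growth factors, had the same form, apart within each treatment and overlapping across them. Of 39 tested genes of the muscle atrophy and fasting list, 8 were higher without overlap and none lower (20.5%, beside 8.12% of all tested genes). Within both treatments 24 were higher and none lower, beside 9.38% and 9.72% of all tested genes, and the list's median log2 difference was 0.46, beside 0.00 over all genes. Fast muscle structure did not share this direction. Of 46 tested fast muscle genes 2 were higher and 3 lower without overlap (10.9%, near the 8.12% of all tested genes), with a median of -0.03. The 3 lower ones were the troponin gene tnni2a.3 (-0.79 ± 0.13) and the actin genes acta1a (-0.54 ± 0.10) and actc1a (-0.58 ± 0.07). A second entry with the symbol actc1a was higher (1.29 ± 0.27) and overlapped, so that gene is uncertain.

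**Figure D2:**
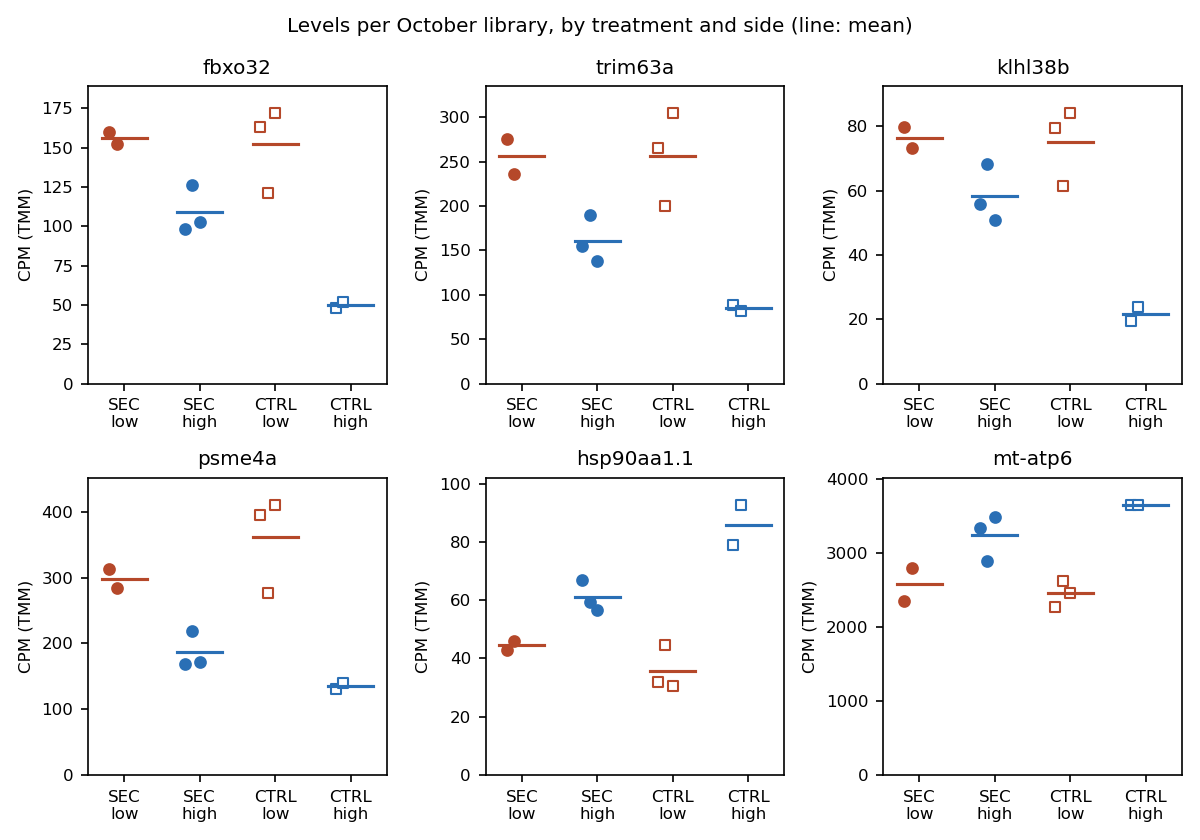
TMM-scaled CPM per October library for 6 genes, by treatment and side (red, low side; blue, high side; filled circles, SEC; open squares, CTRL), with a line at each mean. For fbxo32, trim63a and klhl38b the low libraries of both treatments lie at one level, and the high CTRL libraries lie below the high SEC libraries.

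Differences between the sides were mostly larger among CTRL than among SEC libraries. In separate fits, fbxo32 differed by 0.52 ± 0.10 between low and high SEC libraries and by 1.61 ± 0.17 between low and high CTRL libraries, and klhl38b by 0.39 ± 0.13 and 1.8 ± 0.17. Over the 39 atrophy and fasting genes the median was 0.23 within SEC and 0.52 within CTRL, and 30 of them (76.9%) had the larger difference in CTRL. This was general: the share was 67.5% of all tested genes and 83.2% of the genes without overlap. It was 72.8% of those that also differed at least 2-fold. leap2, for one, differed by -0.80 ± 0.20 within SEC and -2.24 ± 0.35 within CTRL. Single genes had differences of like size in both treatments. nlrc6 differed by 1.4 ± 0.13 within SEC and 1.22 ± 0.14 within CTRL, and si:ch1073-464p5.5 by -6.14 ± 0.89 and -5.37 ± 0.22. On the first principal component the CTRL libraries ran from -33.7 to 31.1 and the SEC libraries from -16.1 to 23.9. Values were centred within treatment, so how far out each side lies also depends on its number of libraries.

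Part of the genes of related programmes were higher on the low side as well. In the autophagy and lysosome list 9 of 35 tested genes were higher without overlap and none lower (25.7%, beside 8.12% of all tested genes). Within both treatments 18 were higher and 1 lower (54.3%, beside 19.1% of all tested genes), and the list's median was 0.22. Among them were map1lc3a (0.48 ± 0.07), a coat protein of autophagosomes, and bnip3 (0.46 ± 0.09), a mitophagy receptor. In the p53 response list 5 of 21 were higher and none lower without overlap (23.8%, beside 8.12% of all tested genes). They included gadd45ba (0.83 ± 0.19), a stress-inducible growth arrest gene, and sesn1 (0.67 ± 0.19), a sestrin. sesn1 had 609 and 594 CPM in low SEC and 839, 646 and 950 CPM in low CTRL libraries, against 497, 546 and 500 CPM in high SEC and 378 and 371 CPM in high CTRL libraries. In the glucocorticoid list 2 of 18 were higher without overlap (11.1%, near the 8.12% of all tested genes). Within both treatments 6 were higher and none lower (33.3%, beside 19.1% of all tested genes). tat, the tyrosine aminotransferase gene, was one of them at 0.88 ± 0.20. In the gluconeogenesis and glycogen list tat alone of 19 tested genes had no overlap (5.26%, beside 8.12% of all tested genes). lpl, the lipoprotein lipase gene, had 182 and 188 CPM in low SEC and 267, 190 and 324 CPM in low CTRL libraries, against 122, 156 and 110 CPM in high SEC and 112 and 110 CPM in high CTRL libraries (0.87 ± 0.21). The fatty acid oxidation list, to which lpl belongs, did not share its direction, with 6 of 35 lower without overlap and lpl alone higher. In the ATF4 and unfolded protein list the directions were mixed, with 2 higher and 5 lower without overlap among 43 (16.3%, beside 8.12%). ddit4, a stress-induced inhibitor of the growth kinase mTOR, was higher (0.75 ± 0.26).

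Several chaperone genes were lower on the low side. hsp90aa1.1, the heat shock protein that folds myosin in zebrafish muscle, had 42.9 and 46.0 CPM in low SEC and 31.8, 44.7 and 30.6 CPM in low CTRL libraries, against 66.9, 59.3 and 56.7 CPM in high SEC and 78.9 and 92.8 CPM in high CTRL libraries. Its log2 difference was -0.86 ± 0.18. The co-chaperone ahsa1a (-0.77 ± 0.13), the endoplasmic reticulum chaperones hsp90b1 (-0.68 ± 0.13), calr3b (-0.87 ± 0.24) and hyou1 (-0.57 ± 0.15), and the small heat shock gene cryabb (-1.20 ± 0.23) had no overlap. In the heat shock list 1 of 37 tested genes was higher and 8 were lower without overlap (24.3%, beside 8.12% of all tested genes). The other 28 overlapped, and the median was -0.13. Within both treatments 4 were higher and 13 lower (45.9%, beside 19.1% of all tested genes). hsp70l, an inducible heat shock protein gene looked at after its values were seen, was higher within both treatments (1.12 ± 0.21).

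Mitochondrial energy genes formed the largest group of lower genes among the lists by the count without overlap across all libraries. mt-atp6, a subunit of the ATP synthase encoded in the mitochondrial genome, had 2350 and 2800 CPM in low SEC and 2270, 2620 and 2460 CPM in low CTRL libraries, against 3340, 2890 and 3480 CPM in high SEC and 3650 CPM in each high CTRL library (-0.45 ± 0.07). Of the 13 mitochondrially encoded genes, 8 were lower without overlap and none higher (61.5%, beside 8.12% of all tested genes), with a median of -0.25. These genes share the mitochondrial genome and may not be separate observations. Their summed share of counts overlapped, at 3.84 to 4.79% on the low side and 4.42 to 5% on the high side. Of 75 tested nuclear genes of oxidative phosphorylation, 22 were lower and 1 higher (30.7%, beside 8.12%), with a median of -0.12. The differences were small, such as -0.47 ± 0.11 for ndufa4 and -0.25 ± 0.06 for uqcrfs1, and the 1 gene higher without overlap was cox6a2 (0.54 ± 0.10). Within both treatments 27 of these nuclear genes were lower and 2 higher (38.7%, beside 19.1% of all tested genes). By that count the matrix list had 29 lower and the cell cycle list 28. In the fatty acid oxidation list 6 of 35 were lower without overlap, with cpt2, the inner carnitine palmitoyltransferase, at -0.67 ± 0.14. lpl was the one higher, and together they were 20% of the list, beside 8.12% of all tested genes.

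Many, though not all, cell cycle and extracellular matrix genes were lower within each treatment, but few across all libraries. None of the 62 tested cell cycle genes was free of overlap between all low and all high libraries. Within both treatments 28 were lower and none higher (45.2%, beside 19.1% of all tested genes), and the list's median was -0.40. mcm6, a subunit of the replicative helicase, had 20.5 and 21.5 CPM in low SEC and 17.5, 29.1 and 16.7 CPM in low CTRL libraries, against 30.0, 27.2 and 29.4 CPM in high SEC and 47.8 and 43.9 CPM in high CTRL libraries. The median was -0.17 within SEC and -0.65 within CTRL libraries. In the extracellular matrix and cartilage list, 5 of 56 were lower and 1 higher without overlap (10.7%, near the 8.12% of all tested genes). Within both treatments 29 were lower and 1 higher (53.6%, beside 19.1% of all tested genes), and the list's median was -0.32. col1a2, a chain of type I collagen, had 759 and 768 CPM in low SEC and 825, 1060 and 819 CPM in low CTRL libraries, against 1060, 942 and 1050 CPM in high SEC and 1390 and 1350 CPM in high CTRL libraries. mcm6 and col1a2, and the genes of these 2 lists and of the enterocyte list named below from the counts within treatments, were chosen for their size after their values were seen.

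Among tissue lists, some enterocyte genes were lower and some lens genes higher. Of 35 tested enterocyte genes 5 were lower and none higher without overlap (14.3%, beside 8.12% of all tested genes). Within both treatments 16 were lower and 1 higher (48.6%, beside 19.1% of all tested genes), and the list's median was -0.31. alpi.2, an intestinal alkaline phosphatase, averaged 14.0 ± 2.21 CPM on the low side and 20.6 ± 1.64 CPM on the high side (SD, n = 5 each; -0.62 ± 0.07). The fatty acid binding protein gene fabp1b.1 (-0.61 ± 0.08) was lower too. Of 51 tested lens genes 13 were higher without overlap and cryabb alone was lower (27.5%, beside 8.12% of all tested genes). The differences were small, such as 0.28 ± 0.06 for crygm2d4 and 0.24 ± 0.06 for crygm2d6. The crygm2d genes are near-identical copies, so they are not separate observations. The defining lens gene cryaa overlapped between the sides, at 77.7 CPM on the low side and 73.3 CPM on the high side. The part of tissue proportions in these differences was not tested.

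In other groups few genes or none stood apart by side. None of the 75 tested cytosolic ribosomal protein genes was free of overlap, within treatments or across them, and their log2 differences ran from -0.11 to 0.13. Among 15 tested targets of the aryl hydrocarbon receptor, the sensor of dioxin-like compounds, 2 were higher within both treatments and none lower (13.3%, beside 19.1% of all tested genes). None was free of overlap across all libraries, but 12 of the 15 were called higher in SEC. Both sides hold SEC and CTRL libraries, so that count says little about the side. cyp1a, the receptor's main target enzyme, differed by -0.00 ± 0.06 between low and high libraries, and the brain aromatase gene cyp19a1b by -0.06 ± 0.09. hmox1a, the haem oxygenase gene, had 4.74 and 3.41 CPM in low SEC and 26.4, 23.5 and 24.4 CPM in low CTRL libraries, against 5.61, 4.07 and 3.73 CPM in high SEC and 12.7 and 13.8 CPM in high CTRL libraries. Its sides stood apart among CTRL libraries and overlapped among SEC libraries.

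**Figure D3:**
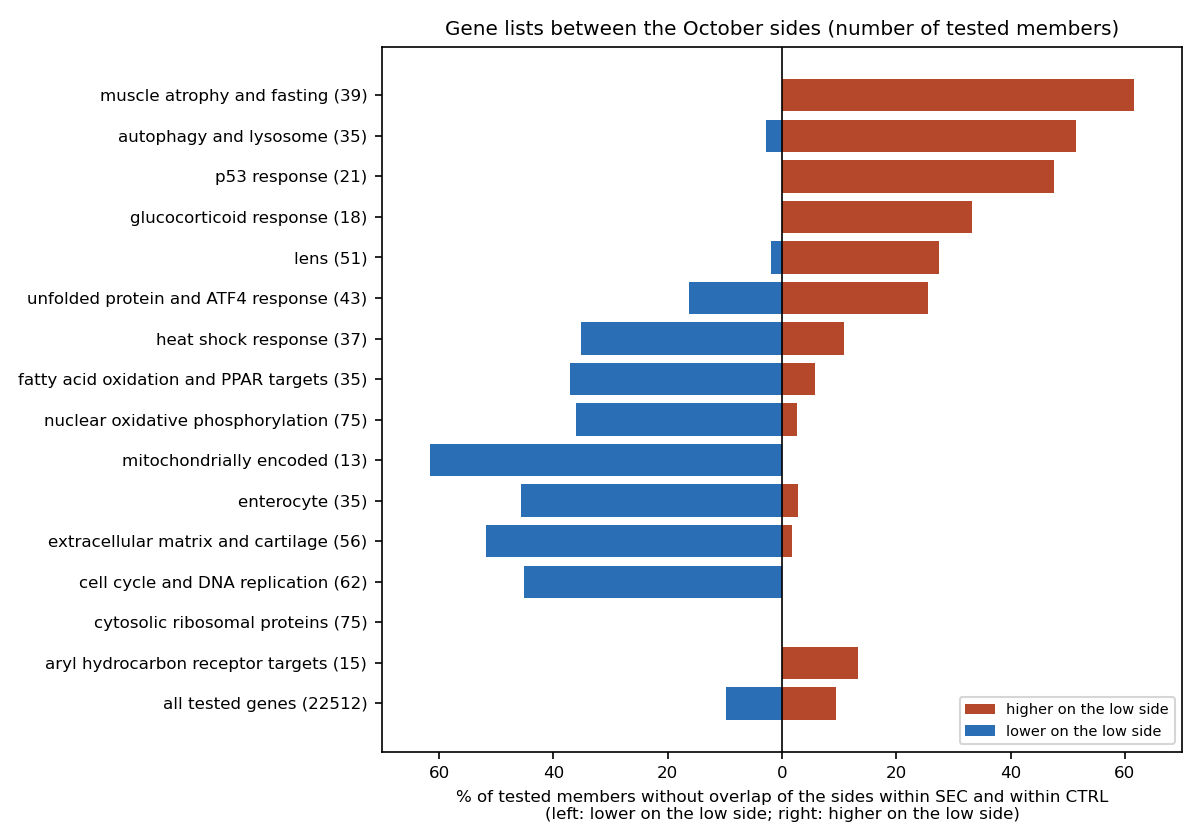
Share of tested members of 15 gene lists, and of all tested genes, whose low and high October libraries did not overlap within SEC and within CTRL in the same direction; bars to the right are higher and bars to the left lower on the low side, and the number of tested members is in brackets. The atrophy and fasting bar holds 24 of 39 genes on the right and none on the left, beside 9.38% and 9.72% of all tested genes.

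The low side lay outside the June range more often than the high side. Of the 1827 genes without overlap, all 5 low libraries lay above, or all below, all 10 June libraries in 681 genes while the high ones did not, and the reverse held in 55. In 17 genes both sides lay outside, and in 1074 neither did. Over all tested genes the low side was outside the June range in 7.36% and the high side in 1.59%. Genes with the low side alone outside included hamp, nlrc6, psme4a, calcoco1b, lpl, tat, cpt2 and hsp90aa1.1. trim63a and ppp1r27b did not meet this for either side, though single libraries lay outside. The June libraries had 123 to 212 CPM of trim63a.

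The June libraries also allowed a test that the split had not used. Each gene was tested against the level of si:dkey-269o24.1 over the 10 June libraries, within treatment, with edgeR's quasi-likelihood test and Benjamini-Hochberg adjustment over 23059 genes. Besides the rule gene itself, 18 genes passed an adjusted p of 0.05, all with it and none against it (0.0824% of genes called, the rule gene included), and 1010 did at an unadjusted p under 0.05 (4.38%). They were again mostly clone-named, with si:dkey-84h14.2 (slope 0.61 ± 0.05 log2 units for each log2 unit of the rule gene, adjusted p = 1.13e-05) and zgc:174314 (0.62 ± 0.06, adjusted p = 0.000222) among them. Of the 18, 5 had no overlap between the October sides, all in the matching direction (27.8%, beside 8.12% of all tested genes in October): zgc:174314, si:ch211-226o13.1, CU457778.9, CT583728.4 and cyp2p9. In the matching direction, low where the rule gene was low, were 16 of the 18. Without CTRL JUN20 replicate 2, the library with 8 counts of the rule gene, 2 of the 18 were left. Of the genes that ran against the rule gene in June, mucms1 had the smallest p (-0.176 ± 0.037, adjusted p = 0.202). That was opposite to October, where mucms1 was low where the rule gene was low. Across the genes without overlap in October, the June slopes had the matching sign in 45.3%, beside 49% of all genes.

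The graded genes were tested in June against fbxo32 in the same way. Besides fbxo32 itself, 20 genes passed an adjusted p of 0.05, 14 with it (0.0651% of genes, fbxo32 included) and 6 against it (0.026%), which is 0.0911% in all, and 2258 did at an unadjusted p under 0.05 (9.79%). The 14 were trim63a (slope 0.73 ± 0.09, adjusted p = 0.00589), klhl38b (0.73 ± 0.09, adjusted p = 0.00589), cyp4v7, lpin1, psme4a, retreg1, tdh, pnp5a, nfe2l1a, ghrb, zfand5b, prodha, hpda and asb10. The 6 against it were hyou1 (-0.62 ± 0.08, adjusted p = 0.00737), unc45b (-0.96 ± 0.13, adjusted p = 0.0134), hspd1, calr, tars1 and abcf1. unc45b encodes the myosin chaperone, hspd1 a mitochondrial chaperone, and hyou1 and calr chaperones of the endoplasmic reticulum. All 20 had the same sign in October, where 16 had no overlap within both treatments, beside 19.1% of all tested genes, and 6 none across all libraries, beside 8.12%. The June slopes had the October sign in 79.1% of the genes without overlap, beside 63.9% of all genes. The June calls depended on single libraries: without SEC JUN20 replicate 2 none of the 20 was left, without SEC JUN20 replicate 5 or CTRL JUN20 replicate 4 there were 2, and without CTRL JUN20 replicate 3 there were 47, of which 17 were among the 20. Without SEC JUN20 replicate 1 there were 32, which held all 20, and without SEC JUN20 replicate 3 or CTRL JUN20 replicate 2 there were 10.

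**Figure D4:**
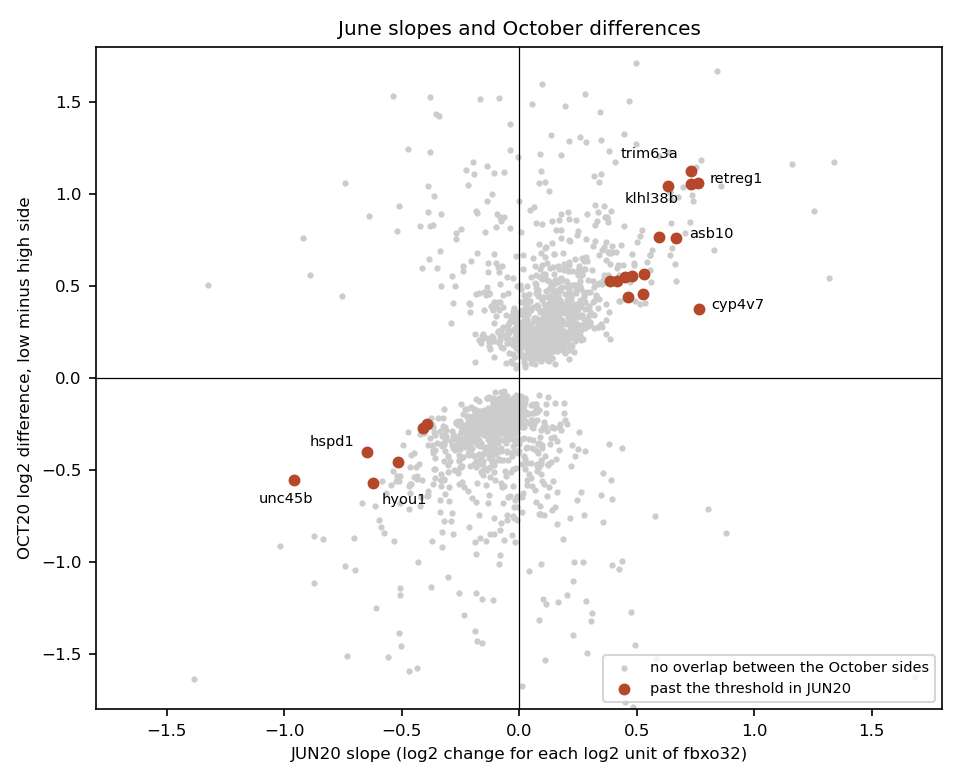
June slope on the fbxo32 level (horizontal, log2 units for each log2 unit) against the October log2 difference, low minus high (vertical), for 1790 genes without overlap in October (grey) and the 20 genes past the threshold in June (red); 30 further grey genes lie beyond the axes. All 20 red points lie in the 2 quadrants where the signs are the same.

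The count of genes that differed with the extract depended on whether the side was in the fit. With side in the fit, 4617 genes passed an adjusted p of 0.05 between SEC and CTRL in October (20.5%), 2456 higher (10.9%) and 2161 lower (9.6%) in SEC, by edgeR's quasi-likelihood test. Without side in the fit there were 2763 (12.3%), 1618 higher (7.19%) and 1145 lower (5.09%). Of these, 2757 were called in both fits and all of those had the same sign. The common coefficient of variation between pools was 8.4% with side and 12.1% without it. The side was taken from a measured count, so the fit with side rests on a grouping made from the same libraries. SEC had 2 low and 3 high libraries, and CTRL had 3 low and 2 high. With this imbalance, adding side moved a gene's SEC estimate in the direction of its own low minus high difference.

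Extracellular matrix and cell cycle genes had more calls with the side term, as did all tested genes, of which 9.6% fell with side and 5.09% without. In the extracellular matrix and cartilage list 24 of 56 genes fell and 3 rose in SEC with side in the fit, against 2 and 2 without it. The 24 became 19 to 33 when each library was left out in turn. The collagen gene col5a3b had 66.2 and 67.0 CPM in low SEC and 97.4, 96.5 and 99.8 CPM in high SEC libraries, against 89.5, 115 and 96.8 CPM in low CTRL and 131 and 145 CPM in high CTRL libraries. It differed by -0.54 ± 0.06 between SEC and CTRL with side in the fit (adjusted p = 2.01e-05) and by -0.44 without it (adjusted p = 0.0926). postnb, a periostin gene, differed by -0.47 ± 0.10 with side (adjusted p = 0.00686) and by -0.40 without (adjusted p = 0.178). In the cell cycle list 38 of 62 genes fell in SEC with side, 23 to 50 with each library left out, and 20 fell without side. In proportion this was near the change over all tested genes, of which 1145 fell without side and 2161 with it. fen1, a flap endonuclease of DNA replication, differed by -0.48 ± 0.13 with side (adjusted p = 0.0227) and by -0.38 without (adjusted p = 0.35). col5a3b, postnb and fen1 also differed between the sides (-0.51 ± 0.06, -0.53 ± 0.10 and -0.70 ± 0.13) and were picked after their values were seen. Their adjusted p with side therefore describe that fit only. With CTRL replicate 2 left out the cell cycle count was at its lowest. col5a3b, postnb and fen1 were lower on the low side, so the imbalance of the split moved their SEC estimates down with side. The same shift acted on the matrix and cell cycle lists, whose median differences between the sides were -0.32 and -0.40. The test of the difference between the 2 fits was not made.

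Some genes of the graded group were called higher in SEC once the side, a grouping made from these same libraries, was in the fit. Calls were more numerous with side in general: over all tested genes 10.9% rose and 9.6% fell, against 7.19% and 5.09% without it. For genes higher on the low side, the imbalance of the split also moved the SEC estimate up. Their added calls are therefore not a result about the extract alone. In the atrophy and fasting list 11 of 39 rose and 2 fell with side, 7 to 15 rising when each library was left out, against 4 and 2 without it. igfbp1a had 207 and 241 CPM in low SEC and 128, 161 and 119 CPM in high SEC libraries, against 145, 132 and 201 CPM in low CTRL and 58.1 and 52.3 CPM in high CTRL libraries. It differed by 0.88 ± 0.21 between SEC and CTRL (adjusted p = 0.0196), against 0.54 without side (adjusted p = 0.362). In the autophagy and lysosome list 8 of 35 rose and 1 fell with side, against 0 and 1 without it. Of all tested genes 20.5% were called in either direction with side and 12.3% without it. sqstm1, an autophagy receptor, differed by 0.64 ± 0.11 (adjusted p = 0.00185), against 0.50 without side (adjusted p = 0.0994). Both igfbp1a and sqstm1 also differed between the sides (1.12 ± 0.21 and 0.56 ± 0.11) and were picked after their values were seen. Their adjusted p with side therefore describe that fit only. fbxo32 did not pass, at 0.56 ± 0.24 (adjusted p = 0.142), nor did trim63a, at 0.45 ± 0.22 (adjusted p = 0.215). The receptor targets needed no such term: 12 of 15 rose and 1 fell with and without side, and cyp1a differed by 3.95 ± 0.06 with side (adjusted p = 1.79e-14).

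**Figure D5:**
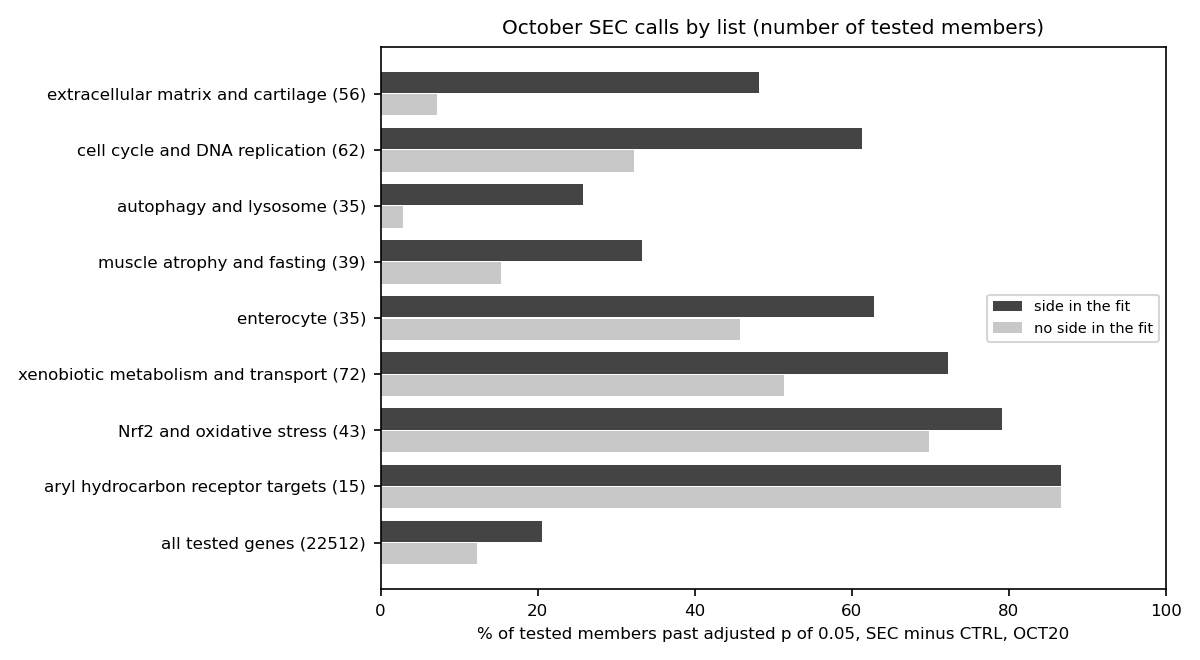
Share of tested members past an adjusted p of 0.05 between SEC and CTRL in October, with side in the fit (dark) and without it (light), for 8 gene lists and all tested genes; the number of tested members is in brackets. All tested genes have more calls with side (20.5% against 12.3%), as do extracellular matrix genes and cell cycle genes. Targets of the aryl hydrocarbon receptor have 13 of 15 in both.

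Whether the extract acted differently on the 2 sides was tested as an interaction, with 2 low and 3 high SEC and 3 low and 2 high CTRL libraries. By edgeR's quasi-likelihood test no gene passed an adjusted p of 0.05, while 3033 had an unadjusted p under 0.05 (13.5%), and DESeq2's Wald test called 246. Without CTRL OCT20 replicate 3, edgeR called 1221. For fbxo32 the SEC effect on the low side minus that on the high side was -1.09 ± 0.23 (adjusted p = 0.156), and for klhl38b -1.41 ± 0.25 (adjusted p = 0.119). hyou1 had 0.78 ± 0.14 (adjusted p = 0.093), and sesn1 -0.89 ± 0.19 (adjusted p = 0.154). For nlrc6 the interaction was 0.18 ± 0.20 (adjusted p = 0.745). A difference of the extract's effect between the sides was therefore not shown at the adjusted threshold with these numbers of libraries.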

How the data were processed

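Transcripts were counted in pools of 10 whole larvae, 5 pools for each of the 4 groups. The authors deposited raw counts per gene: all values were whole numbers, and the files of single samples equalled the series table for 20 of 20 libraries. Libraries were stranded mRNA libraries read in pairs, per the labels' protocols. Per the submitters' processing notes, the aligner was STAR 2.7.8a and the build GRCz11, and CASAVA, SAMtools and DESeq2 (named with version 3.17) are listed too. Which tool counted reads, with which annotation release, and how molecular identifiers were handled was not given in the sources used here. Of 32520 genes, 1234 carried a symbol shared with another row and are named as uncertain.

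The 10 OCT20 libraries were split at 60 raw counts of si:dkey-269o24.1. Genes passed edgeR's filterByExpr with a minimum count of 10 (22512 genes) and were scaled with TMM factors. edgeR 4.0.16 in R 4.3.3 fitted side and treatment (quasi-likelihood F test, robust), with two-sided p-values adjusted by Benjamini and Hochberg and a threshold of 0.05. P-values measure the spread between pools, since separate spawns are not stated. Each SE is the log2 difference over the square root of F. June fits used the centred log2 CPM of one gene with a prior count of 2. June CPM values are scaled over all 20 libraries. Gene lists (45, with 1767 of 1848 members matched, 23 of them through the reference tables) came from general knowledge. The split, the lists and the tests were chosen with earlier results of these data known.

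Named genes were the 15 with the largest difference in each direction among genes without overlap, a mean of at least 1 CPM and no clone name. Added were the 12 largest of any name with at least 60 counts in a library, up to 4 members of each list, 10 genes whatever their values, and the 5 with the smallest p in each direction of each June fit. Not all are printed, and genes outside this rule, such as igfbp1a, sqstm1, fen1, postnb and col5a3b, were taken after their values were seen. Same-numbered SEC and CTRL libraries did not deviate together (correlations from -0.384 to 0.249 in October and -0.0699 to -0.0161 in June), so replicate numbers were not used as pairs.

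Each fit was tested on simulated counts with 200 genes changed. The change was 2-fold for October fits, and for June fits 2-fold for each log2 unit of the covariate gene. The June shares therefore do not hold for a 2-fold change between libraries. edgeR recovered 89.5% for SEC against CTRL with side, 65.5% for the interaction, 100% for June against the rule gene and 74.5% for June against fbxo32. False calls were 6.77%, 4.38%, 7.83% and 7.45% of its calls, in that order. DESeq2 recovered 91% for SEC against CTRL with side, with 11.2% of its calls false. It was not simulated for the interaction or the June fits. Simulated counts were drawn for each gene independently, with the side as a known factor. In the data the side was taken from the same libraries, and many genes varied together with it. The simulated shares may therefore not hold for the October fits. Alternatives were RLE factors, library totals, no filter, a stricter filter (a summed count of 200, with 1 CPM reached in 5 libraries), DESeq2 1.42.0, all 20 libraries in one fit, a continuous covariate, the replicate block, each treatment alone and each library left out. No overlap within both treatments was added after the data were seen.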

Additional observations from a re-analysis of the deposited data

Results flagged for a closer look

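Within groups of 5 libraries, the levels of 21 genes and 3 library measures were checked for a library far from the other 4, over 90 groups in all; 6 groups had one, and chance alone gives about 1 in 20. In October, mucms1 had 2.93 CPM in SEC replicate 5 of the low side, against 0.12 to 0.797 CPM in the other low libraries. The same library had 3.02 CPM of si:ch211-57b15.1, against 0.899 to 1.45 CPM. si:ch1073-464p5.5 had 1.03 CPM in CTRL replicate 1 of the low side, against 0.42 to 0.589 CPM, and si:dkey-31g6.6 had 9.58 CPM in CTRL replicate 2 of the high side, against 2.09 to 3.98 CPM. In June, hamp had 1.33 CPM in CTRL replicate 3, against 0.0613 to 0.264 CPM in the other CTRL libraries, and mhc1uka had 1.16 CPM in SEC replicate 1, against 0.269 to 0.463 CPM in the other SEC libraries.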

How the results depend on the processing

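With side in the fit, the count of genes called between SEC and CTRL in October was 3512 to 5058 when each library was left out and moved beyond 1.5-fold under no alternative except the fit without side (2763). The interaction count of 0 became 1 with library totals, 29 without a filter, 246 with DESeq2 and 0 to 1221 with each library left out; where that left 1 library of a treatment on a side, it was assumed to vary like the others. The June calls against the rule gene, 19 with the gene itself, were 38 with DESeq2 and 3 to 22 with each library left out. The June calls against fbxo32, 21 with fbxo32 itself, were 217 with DESeq2 and 1 to 48 with each library left out. Genes without overlap between the sides, 1827 in all, were 1997 to 2924 with each library left out and 4301 when asked for within each treatment. Both changes loosen the criterion, so a rise was built in and these counts do not measure stability. The side term of the October fit, a description only, was past an adjusted p of 0.05 in 4465 genes, in 2451 with a continuous covariate and in 2176 to 4740 with each library left out; it was lowest without CTRL replicate 2, was 2316 without CTRL replicate 4 and 2970 without CTRL replicate 1. The cause of these shifts was not tested. No named gene without overlap changed direction under any setting in which it was tested. With a library left out, or within 1 treatment, this followed almost entirely from the choice of genes without overlap.

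Replicate numbers of the labels share no stated origin, and with them as a block the side term was past the threshold in 145 genes, SEC against CTRL in 3126, June against the rule gene in 24 and June against fbxo32 in 0. A replicate block was not run for the interaction. Low counts limit BX004857.1, si:dkey-125e8.3, mhc1zfa and mhc1uka.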
